A study of Mus musculus with 18 samples.

Results

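Lung epithelial cells of adult mice carrying a fluorescent Wnt reporter were sorted into fractions with high, low or no green fluorescence, and the low fraction is compared here with the negative fraction. The comparison uses 12 of the 18 arrays of the series. They are the 6 arrays titled Wnt-low and the 6 titled Wnt-negative, paired by the experiment number (3, 4, 5, 7, 8 and 9) in their titles. All 30142 genes with a probe set annotated to that gene alone were tested, and a gene with several such probe sets was read from the one with the highest mean over the 18 arrays.

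Both groups came from TCF/Lef:H2B/GFP mice aged 8 to 12 weeks that had received no treatment named in the labels, and each sample pooled cells of 3 to 4 animals. In this strain a promoter with TCF/Lef binding sites drives a histone H2B fused to green fluorescent protein (GFP), so the sort reads the amount of that protein in each cell and not its current transcription. The protocol took lungs with trachea and bronchi, although the tissue label reads distal lungs, so airway cells could enter either fraction. Cells positive for CD31 (endothelial) or CD45 (blood) were depleted, EpCAM-positive cells were enriched on beads, and live EpCAM-positive cells were then sorted by GFP. Transcripts were measured from 8 ng of total RNA per sample on Affymetrix whole-transcript arrays. All levels are the deposited log2 values, which ran from 1.79 to 19.93 over the series, and all differences are Wnt-low minus Wnt-negative on that scale.

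In canonical Wnt signalling a secreted Wnt binds a Frizzled receptor and an Lrp5 or Lrp6 co-receptor, the complex that destroys beta-catenin is held in check, and beta-catenin joins TCF/Lef factors on DNA to switch on target genes. Several targets, among them Axin2, Nkd1, Notum and Znrf3, encode inhibitors of the pathway and serve as its common readouts. In the lung, Wnt signals act on alveolar type II cells, which make surfactant, and on the secretory and multiciliated cells of the airways.

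By their values the arrays fell into a pair of sets with separate scales, called runs here. The division was read from the values and not from the titles. Whether the sets were scanned or normalized apart is not given. The median array value lay between 4.63 and 4.77 for experiments 3, 4 and 5, and between 3.55 and 3.69 for 7, 8 and 9, with 3 arrays of each group in each run. The background level of an array was taken as the 95th percentile of 1526 odorant and vomeronasal receptor genes, and 12479 of the 30142 genes lay below it in both groups and both runs. The epithelial genes Epcam and Cdh1 were well above background in every array and did not pass the test (differences of 0.04 and 0.09, adjusted p = 0.584 and 0.258). The Wnt-low array of experiment 4 was the nearest to its own Wnt-negative partner. Their correlation over all genes was 0.984 against 0.948 to 0.967 in the other experiments, and the median difference of the genes called higher was 1.06 there against 1.76 to 2.55 elsewhere.

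A gene was called when its adjusted p was under 0.05 and its difference at least 1 in size, in a paired limma fit with Benjamini-Hochberg adjustment over all genes. By that rule 1285 genes were higher in Wnt-low (4.26% of those tested) and 974 were lower (3.23%), together 7.49%, and the median difference of all genes was −0.03. The count of called genes in each list below is to be read against these shares. Among genes above background in at least 1 group and run the shares were 7.28% higher and 5.51% lower, among protein-coding genes 6.22% and 3.6%, and by the adjusted p alone 21.7% of all genes passed in either direction. Among called genes 2206 had the same sign in all 6 experiments and 53 in 5 of 6, an agreement that the call rule itself largely requires. Complete separation of the groups was commoner among the genes called higher. Every Wnt-low array lay above every Wnt-negative array for 732 of the 1285 genes called higher (57%; 2.56% of all genes), whereas complete separation downward held for 49 of the 974 called lower (5.03%; 0.189% of all genes). Without experiment 4 the test called 1395 genes higher and 1105 lower, and 2211 of the genes called from all experiments were among them. Without the experiment block it called 748 higher and 225 lower, so the share of calls that were higher went from 56.9% to 76.9%. With the run as the block in its place it called 1298 higher and 995 lower. In a run alone, experiments 3 to 5 gave 0 calls (smallest adjusted p = 0.156, with 6829 genes at an unadjusted p under 0.05) and experiments 7 to 9 gave 1269.

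The 15 named genes that rose most included several secreted airway products. Tff2 encodes a trefoil peptide that coats mucosa, and it measured 15.05, 15.77 and 17.54 (lowest, median and highest of 6 arrays) in the Wnt-low and 3.70, 4.25 and 5.00 in the Wnt-negative arrays. The groups lay far apart and the Wnt-negative arrays were at background, so the difference was at least 11.67 (fitted 11.84, SE 0.53, adjusted p = 0.000996). Bpifb1, a secreted airway defence protein, measured 15.41, 17.03 and 18.43 against 4.70, 5.46 and 6.04 (difference 11.57, adjusted p = 0.00107). Also among them were Muc5b, described with the mucous cell genes, and the secretory products Scgb3a1 (10.97), Bpifa1 (10.70), Lypd2 (10.07) and the iron-binding Ltf (9.23). The others were Gabrp (10.40, a GABA receptor subunit), the matrix protein gene Chad (at least 9.70), Cyp4a12b (9.44) and Cyp2a4 (8.12) of the cytochrome P450 family, the lipid phosphatase gene Plpp3 (9.40), the ferroxidase gene Cp (8.81), Lrrc26 (8.61, an accessory subunit of a potassium channel) and Spata18 (8.04). In these samples, fewer cells of a type and less RNA per cell cannot be told apart.

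At the level of Wnt signalling itself, the common readouts of the pathway were lower or not called in the GFP-low fraction. Of 16 measured Wnt target and feedback genes, 4 fell (Nkd1, Znrf3, Bambi and Axin2), 1 rose (Wif1) and 11 did not pass, and the list's median difference was −0.24. Axin2, a scaffold of the destruction complex, measured 3.78, 4.91 and 7.21 in the Wnt-low and 5.30, 6.47 and 7.69 in the Wnt-negative arrays. The groups overlapped across runs, and Axin2 was lower in Wnt-low within each of the 6 experiments, by differences between −1.84 and −0.17 (mean −1.32, SE 0.22, adjusted p = 0.00824; 0.596 without the experiment block). Nkd1, an inhibitor of Dishevelled, measured 5.60, 9.32 and 13.01 against 12.30, 12.87 and 13.84. Of the 6 Wnt-low arrays, that of experiment 4 alone lay within the Wnt-negative range. The mean difference of Nkd1 was −3.82 (SE 0.77, adjusted p = 0.0161), and it lost its call without experiment 3, 5 or 8, with an adjusted p of up to 0.0561.

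Znrf3, a ubiquitin ligase that removes Frizzled from the membrane, differed by −2.04 (SE 0.28, adjusted p = 0.00544), with 8.16, 9.10 and 11.42 against 10.44, 11.61 and 12.00. Bambi, a decoy receptor of the TGF-beta family that Wnt signals induce, differed by −1.64 (adjusted p = 0.0121; 0.296 without the experiment block). Notum, a secreted enzyme that inactivates Wnt, did not reach a difference of 1 (−0.82, adjusted p = 0.00887). The target genes Lef1, Lgr5, Nkd2 and Dkk1 were at background in both groups. Tcf7 had no probe set of its own and was not analysed here.

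Wif1, a secreted protein that binds and blocks Wnt ligands, went the other way. It measured 5.94, 7.52 and 10.04 in the Wnt-low and 4.33, 4.86 and 5.97 in the Wnt-negative arrays, and the groups met only at 5.94 and 5.97, which came from different runs. Wif1 was higher in Wnt-low in all 6 experiments (differences 1.29 to 4.07, mean 2.83, SE 0.38, adjusted p = 0.00479). Of 15 secreted antagonists and Kremen receptors, Sfrp1 was the other gene that rose (at least 1.36, adjusted p = 0.00168; 0.0533 without the block), and 0 fell. Dkk2 (0.74) and Kremen1 (0.75) had differences under 1. Over all genes 4.26% were called higher and 3.23% lower.

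Among 21 genes for Wnt ligands and their secretion, 1 was called higher and 1 lower, near the shares over all genes (4.26% and 3.23%). The 2 called genes act at different steps. Porcn, the acyltransferase that lipid-modifies Wnt proteins, measured 9.87, 10.56 and 11.82 in the Wnt-low and 5.66, 6.64 and 7.79 in the Wnt-negative arrays. No array of one group reached the other, and the difference was 4.07 (SE 0.31, adjusted p = 0.00168). Wls, the carrier that takes Wnt proteins to the cell surface, fell (−1.37, adjusted p = 0.00416; 0.188 without the block). Of the 21 genes 6 were above background. The ligand genes Wnt4, Wnt5a and Wnt11 had differences of 0.65, 0.82 and 0.52 and were not called.

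Of 19 receptors 2 were called higher and 2 lower, where 4.26% and 3.23% of all genes were. Fzd4, a Frizzled receptor, rose by 1.34 (adjusted p = 0.00532) and Lgr6, an R-spondin receptor, by at least 0.64 (fitted 1.04, adjusted p = 0.00955). Lgr6 lost its call without experiment 7 or 8, where its difference was under 1. Lrp5, the Wnt co-receptor, fell (−1.79, adjusted p = 0.00602; 0.105 without the block). Ror1, a receptor tyrosine kinase that binds Wnt5a, measured 3.42, 5.75 and 9.54 against 8.40, 9.44 and 10.30 and fell (−3.38, SE 0.52, adjusted p = 0.00691). Of 18 genes of the destruction complex and TCF/Lef machinery, Apc (−1.64, adjusted p = 0.00132), Pygo1 (−1.45, a beta-catenin cofactor) and Axin2 fell, and Tle3, a corepressor bound by TCF, rose (1.22, adjusted p = 0.00216). Without the experiment block 0 of these 4 and 0 of the 2 raised receptors were called, and of the 2 lowered receptors 1, Ror1.

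**Figure D1:**
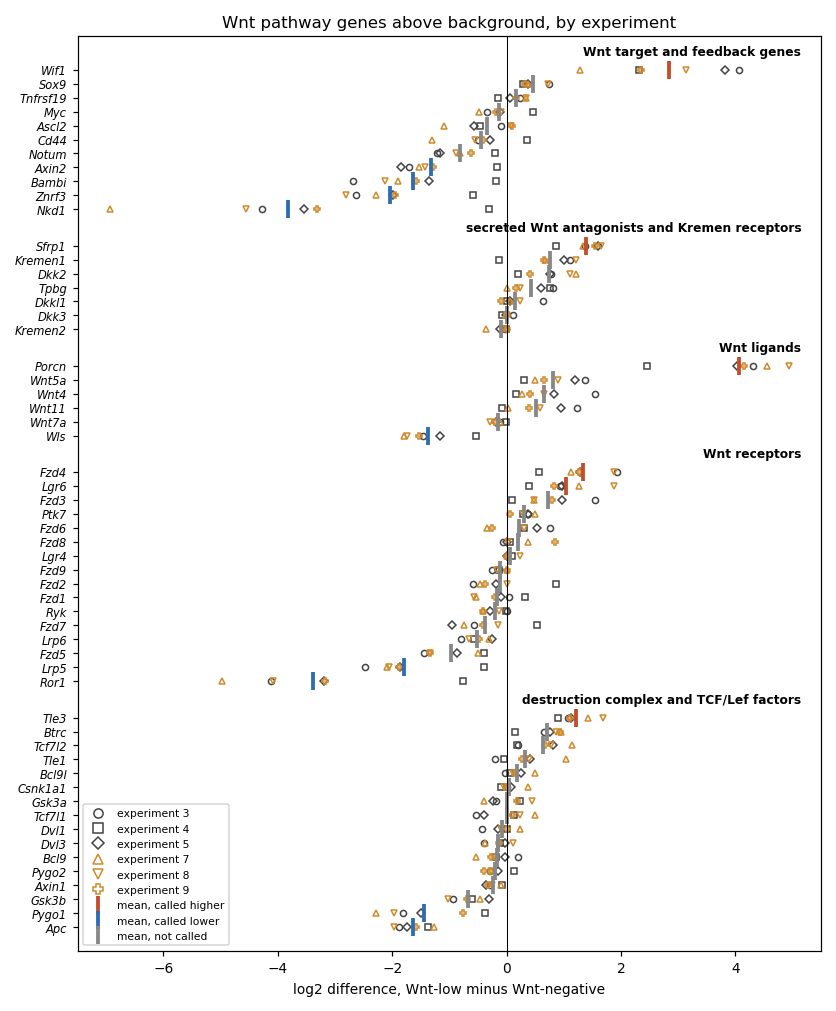
Log2 difference, Wnt-low minus Wnt-negative, of Wnt pathway genes above background, with a symbol for each of the 6 experiments (dark for 3 to 5, orange for 7 to 9) and a bar at the mean, red or blue where called. Nkd1, Znrf3, Bambi, Axin2, Ror1, Lrp5, Wls, Apc and Pygo1 lie to the left of 0 with experiment 4 mostly nearest to it, and Wif1, Porcn, Fzd4 and Tle3 lie to the right in all 6 experiments.

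The promoters of 2 of the most strongly raised genes carried the core letters of a TCF/Lef site, the element on which the reporter is built, and they are shown for that reason. The promoters of Bpifb1 did not carry them, and none was available for Tff2 and Muc5b. The window covers 250 bases before to 50 after the gene's start, from RefSeq on GRCm38.p6, and each sequence reads 5′ to 3′ on the gene's strand. Capitals mark CTTTGAT on either strand (ATCAAAG is its reverse complement). The Gabrp window is chr11:33578908-33579207 on the minus strand, with matches that begin at positions 100 and 124. The Lrrc26 window is chr2:25289661-25289960 on the plus strand, with a match at position 70.
Gabrp: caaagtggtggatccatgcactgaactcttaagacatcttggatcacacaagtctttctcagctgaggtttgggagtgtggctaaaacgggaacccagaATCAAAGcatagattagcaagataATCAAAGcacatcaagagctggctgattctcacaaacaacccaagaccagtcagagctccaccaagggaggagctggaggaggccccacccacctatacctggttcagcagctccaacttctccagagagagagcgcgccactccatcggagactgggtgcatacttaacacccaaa
Lrrc26: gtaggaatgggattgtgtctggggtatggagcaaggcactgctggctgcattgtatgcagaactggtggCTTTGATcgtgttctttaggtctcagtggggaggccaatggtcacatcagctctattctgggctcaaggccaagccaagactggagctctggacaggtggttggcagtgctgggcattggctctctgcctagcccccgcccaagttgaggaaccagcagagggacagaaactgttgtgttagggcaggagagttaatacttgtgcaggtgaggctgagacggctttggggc
The share of promoters with these letters was not higher among called genes. They stood in 35 of 980 promoters of genes called higher (3.57%, exact 95% interval 2.5% to 4.93%), in 18 of 561 of genes called lower (3.21%, 1.91% to 5.02%) and in 1160 of all 27025 promoters (4.29%). Among tested genes with a promoter, 711 of 17970 held them (3.96%). Of the 12 promoters available for the Wnt target list 2 held them (16.7%, 2.09% to 48.4%), and the Axin2 and Nkd1 windows did not. A match describes the letters and is not evidence of binding.

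Club cell and mucous cell genes rose almost as complete sets. Of 11 club cell markers 10 rose and 0 fell, with a list median of 4.00 and medians of 3.13 to 6.33 in the single experiments. Scgb1a1, the main secretory protein of club cells, measured 18.42, 18.76 and 18.97 in the Wnt-low and 14.75, 15.46 and 16.91 in the Wnt-negative arrays. The groups did not overlap, and the Wnt-low arrays were within 1 log2 unit of the highest value on their array, so the difference of 3.16 (SE 0.29, adjusted p = 0.00226) sits near the top of the scale. Scgb3a2, a related secretory protein, rose by 4.77 (adjusted p = 0.00275), Cyp2f2, a club cell P450, by 3.90 (adjusted p = 0.00107) and the retinal-oxidising Aldh1a1 by 7.12 (adjusted p = 0.00202). Gabrp measured 15.43, 17.25 and 18.09 against 5.65, 6.56 and 7.96, with no overlap. Aox3 was the exception (0.90, adjusted p = 0.0711).

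Of 13 goblet and mucous cell markers 10 rose and 0 fell (list median 5.21, or 4.80 with genes at background taken at their bound). Muc5b, the gel-forming mucin of the resting airway, measured 13.69, 15.46 and 17.30 in the Wnt-low and 4.43, 5.17 and 5.74 in the Wnt-negative arrays. No array of one group came near the other (difference 10.38, SE 0.68, adjusted p = 0.00145). Muc5ac, the other airway gel-forming mucin, also rose, with 5.72, 6.53 and 7.61 against a background level of 3.52, 4.16 and 4.74 (at least 2.18, adjusted p = 0.00551). Agr2, a disulfide isomerase needed for mucin folding, rose by at least 3.66 (adjusted p = 0.00307) and the antibacterial lectin gene Reg3g by at least 4.80 (adjusted p = 0.00132). Spdef, which drives goblet cell differentiation, had a difference under 1 (0.67, adjusted p = 0.00619), and Creb3l1 (0.27) and Galnt6 (0.52) did not pass the test.

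Secreted defence genes followed, with 8 of 13 higher and 1 lower (8 and 0 without the block). Pigr, which carries IgA across the epithelium, measured 13.11, 14.54 and 16.84 against 6.13, 6.54 and 13.11. The groups did not overlap, but the Wnt-negative array of experiment 7 came up to the lowest Wnt-low array (difference 7.25, SE 0.73, adjusted p = 0.00292). Cxcl17, a mucosal chemokine, rose by 5.43 (adjusted p = 0.00335). Lcn2, an iron-scavenging protein, fell (−1.37, adjusted p = 0.0193), and lost its call without experiment 3, 5, 7 or 9 (adjusted p up to 0.0675). Of 18 mucin-type glycosyltransferases 1 rose, Galnt12 (1.84, adjusted p = 0.00388), and 1 fell, St3gal1 (−2.07, adjusted p = 0.0072), and the list median was 0.06 (2 and 2 called without experiment 4). The counts of 1 and 1 were near the shares over all genes (4.26% and 3.23%). Of 21 genes of secretory capacity in the endoplasmic reticulum, Agr2, the stress sensor gene Ern2 (at least 1.26, adjusted p = 0.0127) and Sdf2l1 (1.56, adjusted p = 0.00749) rose and 0 fell, and without the block 2 of the 3 were called. The 3 include a pair that is typical of mucous cells, and the general chaperones did not pass both thresholds. Without experiment 4, 5 or 7, 1 gene of this list was lower.

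**Figure D2:**
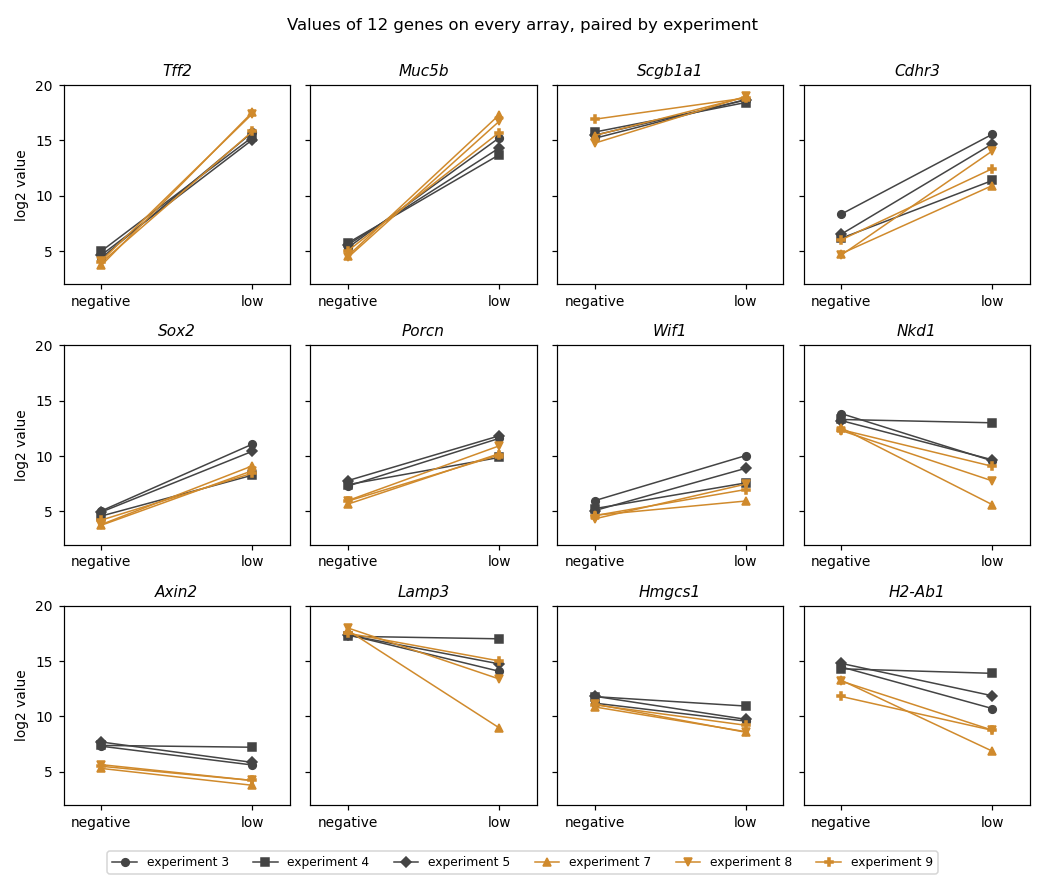
Deposited log2 values of 12 genes on every array, Wnt-negative at left and Wnt-low at right of each panel, with a line joining the arrays of an experiment (dark for experiments 3 to 5, orange for 7 to 9). Tff2 and Muc5b rise steeply in all 6 experiments, and for Nkd1, Axin2, Lamp3 and H2-Ab1 the line of experiment 4 is nearly flat while the others fall.

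Ciliated cell markers rose without exception. All 20 of the 20 measured were called higher (list median 4.88, medians of 3.35 to 6.66 in the single experiments), against 4.26% of all genes. Cdhr3, an adhesion protein of ciliated cells, measured 10.92, 13.25 and 15.56 in the Wnt-low and 4.65, 6.10 and 8.35 in the Wnt-negative arrays. No values overlapped (difference 7.09, SE 0.54, adjusted p = 0.00169). Tmem212 rose by 7.89, the radial spoke gene Rsph4a by 7.12 and the axonemal dynein heavy chain genes Dnah5, Dnah9 and Dnah11 by 4.34, 4.47 and 3.71. Cfap126 and Tppp3 showed the smallest rises, 2.04 and 2.46, and these were the 2 of the 20 that were not called without the experiment block (adjusted p = 0.107 and 0.0859). Foxj1 had no probe set of its own and was not analysed here.

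Regulators of multiciliogenesis, the programme that multiplies basal bodies, rose in part. Of 14 measured, 5 rose and 0 fell, with a list median of 0.75. Mcidas, a coactivator that starts the programme, measured 5.32, 6.19 and 7.95 against 3.92, 4.71 and 5.28, just without overlap (difference 1.70, SE 0.21, adjusted p = 0.00423). The others were Myb (at least 3.65, adjusted p = 0.00182), Deup1 (at least 3.67, a deuterosome protein), Trp73 (1.86) and Cdc20b (at least 1.71). The cilium transcription factor genes Rfx2 and Rfx3 had differences of 0.99 and 0.89 and were not called. Without the block 3 of the 5 were called, Mcidas (0.0653) and Trp73 (0.107) not among them.

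Cdc20b hosts the miR-449 cluster, which shares a seed with miR-34 and promotes multiciliogenesis. The microRNA sequences are shown with the seed, bases 2 to 8, in capitals, because one seed joins genes that did not move together. They are from RefSeq (GRCm38.p6).
miR-449c-5p: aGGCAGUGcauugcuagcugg
miR-449a-5p: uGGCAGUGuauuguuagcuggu
miR-34a-5p: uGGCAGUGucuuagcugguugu
miR-34b-5p: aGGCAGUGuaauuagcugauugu
Mir449c rose by at least 1.13 (fitted 1.30, SE 0.20, adjusted p = 0.00698; 0.241 without the block), with 4.32, 5.58 and 7.02 against 3.31, 4.24 and 5.20. Mir449a (0.08), Mir449b (−0.50), Mir34a (−0.17), Mir34b (0.22) and Mir34c (−0.25) were not called. These probe sets measure the precursor region from total RNA prepared for whole transcripts, so they do not measure mature microRNA. Over all genes annotated as microRNA, 3 of 600 were called higher (0.5%) and 4 lower (0.667%).

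Pifo, a gene of the ciliary base, carried the X-box of RFX factors in its promoter, and the window is shown as the ciliated list's match. It is chr3:106001448-106001747 on the minus strand of GRCm38.p6, from RefSeq. Capitals mark the motif, GTTGCC and then, past any 2 bases, GG, any base and AAC, as it reads on either strand. Its match begins at position 231.
Pifo: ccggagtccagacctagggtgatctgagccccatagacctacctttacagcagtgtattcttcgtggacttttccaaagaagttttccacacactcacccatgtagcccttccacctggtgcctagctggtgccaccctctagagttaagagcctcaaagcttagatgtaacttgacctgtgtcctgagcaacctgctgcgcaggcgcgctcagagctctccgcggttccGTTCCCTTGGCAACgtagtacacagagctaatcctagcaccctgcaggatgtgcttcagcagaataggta
Pifo measured 10.57, 12.21 and 15.32 in the Wnt-low and 4.85, 5.84 and 8.11 in the Wnt-negative arrays, with no overlap (difference 6.52, SE 0.45, adjusted p = 0.00146). The X-box letters stood in 11 of 980 promoters of genes called higher (1.12%, exact 95% interval 0.562% to 2%), 1 of 561 of genes called lower (0.178%, 0.00451% to 0.989%) and 0.355% of all promoters, and in 1 of the 17 ciliated marker promoters available. Among tested genes with a promoter the share was 0.39%.

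Many enzymes of xenobiotic metabolism rose, and 0 fell in the full fit. Of 26 genes for conjugation and carbonyl detoxification 19 rose and 0 fell (list median 2.55), and of 15 cytochrome P450 genes 6 rose and 0 fell (list median 0.96). Without experiment 4, 1 gene of each list was lower, as was 1 conjugation gene without experiment 9. Gsto1, a glutathione transferase, measured 8.48, 9.08 and 10.60 in the Wnt-low and 3.93, 4.67 and 5.61 in the Wnt-negative arrays. With no overlap between groups, the difference varied little among experiments, from 4.20 to 5.17 (mean 4.67, SE 0.14, adjusted p = 0.000615). The sulfotransferase gene Sult1d1 rose by at least 7.45 (adjusted p = 0.00107), Gstm2 by 6.13, the retinol and alcohol dehydrogenase gene Adh7 by 5.90 and the flavin monooxygenase gene Fmo2 by 5.72. Among P450 genes, Cyp4b1 rose by 7.08, Cyp2s1 by 6.83 and Cyp4f15 by 5.79. Cbr2, a carbonyl reductase abundant in lung, was near the top of the scale in both groups (medians 19.26 and 19.16) and was not called. Of 9 measured Nrf2 antioxidant genes, Gpx2 (at least 3.72), Nqo1 (at least 1.97), Gsr (2.02) and Slc7a11 (fitted 1.04) rose and 0 fell. Without experiment 4 or 5, 1 of the 9 was lower. Slc7a11 lost its call without experiment 3 or 5 (adjusted p up to 0.0554) and without the block (0.632).

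Ion transport genes moved in both directions. Of 21 sodium and chloride transport genes 6 rose and 2 fell. The sodium channel subunit genes Scnn1b and Scnn1g rose by 5.61 (adjusted p = 0.0028) and 4.95 (adjusted p = 0.00412), while Scnn1a was not called. Scnn1b measured 13.62, 15.27 and 15.79 against 7.99, 9.49 and 10.22, with no overlap. Lrrc26 measured 11.69, 13.56 and 13.90 against 3.40, 4.80 and 5.42. The chloride channel gene Ano1 (1.71) and Clic6 (4.62) rose, as did Clca1, a secreted goblet cell product (at least 3.10, adjusted p = 0.0377), which lost its call without experiment 3, 4, 8 or 9 (adjusted p up to 0.109). The genes that fell were both anion channels. Slc26a9 measured 10.18, 12.29 and 14.69 against 15.25, 15.45 and 15.71, with no overlap (difference −3.02, SE 0.57, adjusted p = 0.0127), and Cftr differed by −2.21 (adjusted p = 0.00667; 0.064 without the block). Of 19 claudins, which set the permeability of tight junctions, Cldn4 (4.59), Cldn10 (4.00), Cldn8 (2.87), Cldn22 (at least 2.44) and Cldn23 (2.35) rose and 0 fell. Without experiment 7, 1 claudin was lower.

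Alveolar type II genes fell unevenly. Of 16 markers 7 fell, 1 rose and 8 did not pass, with a list median of −1.58 that ran from −2.87 to −0.21 over experiments, the smallest in experiment 4. Several surfactant genes were near the top of the scale and were not called. Sftpc, the surfactant protein specific to these cells, had medians of 19.31 in the Wnt-low and 19.26 in the Wnt-negative arrays (difference 0.06, adjusted p = 0.4301), and Sftpa1 (−0.16), Sftpb (−0.54) and Cxcl15 (−0.22) were likewise near the top and not called. The 7 that fell were all below the top. Sftpd, a surfactant collectin, measured 15.87, 16.09 and 17.08 against 17.17, 17.42 and 18.27, without overlap (difference −1.33, SE 0.26, adjusted p = 0.0137). Abca3, which pumps phospholipid into lamellar bodies, measured 14.22, 14.68 and 16.04 against 16.41, 16.52 and 17.16 (difference −1.83, SE 0.31, adjusted p = 0.0087). Il33, an epithelial alarmin, fell by more (−4.12, SE 0.79, adjusted p = 0.0134).

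Lamp3, a membrane protein of lamellar bodies, showed how much the Wnt-low pools differed. It measured 8.98, 14.42 and 17.01 in the Wnt-low and 17.24, 17.44 and 17.99 in the Wnt-negative arrays. Every Wnt-low array lay below every Wnt-negative array, by between −8.79 (experiment 7) and −0.23 (experiment 4). The mean difference of −3.67 (SE 1.04) only just passed, with an adjusted p of 0.0499, and Lamp3 was not called without experiment 3, 5, 8 or 9 (up to 0.131) or without the block (0.0514). Hc, complement factor 5 (−3.70, adjusted p = 0.0531), and the aspartic protease gene Napsa (−3.17, adjusted p = 0.0709) had differences of the same size and did not pass. Etv5, a transcription factor downstream of FGF signals (−3.78), Lpcat1, which makes the main surfactant lipid (−3.18), and the fatty acid carrier gene Fabp5 (−2.84) fell, with adjusted p of 0.0198, 0.0246 and 0.0209. Each of the 3 lost its call without experiment 3, 5, 8 or 9, with adjusted p of up to 0.0659, 0.0785 and 0.0674. Rasgrf1 was the marker that rose (1.44, adjusted p = 0.0141), and it lost its call without experiment 5 (0.0514). Of 18 genes of lamellar bodies and surfactant processing 9 fell and 0 rose, among them Adgrf5, a receptor that restrains surfactant secretion (−2.66, adjusted p = 0.014), the phospholipid flippase gene Atp8a1 (−1.60, adjusted p = 0.00499) and Rab27a (−1.48, adjusted p = 0.00555). Without the block 5 of these 9 and 6 of the 7 type II markers were called. Without experiment 3, 5, 8 or 9, 3 of the type II markers were lower, and without experiment 3 or 8, 5 of the lamellar body genes.

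Cholesterol synthesis had the largest share of lower genes among the 47 lists. Of 16 measured genes of cholesterol synthesis and uptake 15 fell and 0 rose, against 3.23% of all genes, with a list median of −1.72 and medians of −2.08 to −0.66 in the single experiments. Hmgcs1, which makes the precursor of mevalonate, measured 8.57, 9.39 and 10.94 in the Wnt-low and 10.86, 11.15 and 11.82 in the Wnt-negative arrays. The groups overlapped only through the array of experiment 4, and the difference was −1.86 (SE 0.21, adjusted p = 0.00361). Lss, lanosterol synthase, measured 6.02, 7.27 and 9.17 against 9.17, 9.76 and 11.03 (difference −2.60, SE 0.30, adjusted p = 0.0037). Pmvk (−2.46), Fdps (−2.20) and Idi1 (−1.94), enzymes between mevalonate and the isoprenoids, and Srebf2, the transcription factor gene of the pathway (−1.47), also fell. Sqle, squalene epoxidase, was the exception (−0.50, adjusted p = 0.0633). All 15 kept their calls when any single experiment was left out. Without the block 4 of the 15 were called, because the offset between runs then counts as spread.

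The Hmgcs1 promoter held a sterol regulatory element core, the letters to which SREBP factors bind, and is shown because cholesterol genes moved together. The window is chr13:119690101-119690400 on the plus strand of GRCm38.p6, from RefSeq, with CACCCCAC in capitals at position 115.
Hmgcs1: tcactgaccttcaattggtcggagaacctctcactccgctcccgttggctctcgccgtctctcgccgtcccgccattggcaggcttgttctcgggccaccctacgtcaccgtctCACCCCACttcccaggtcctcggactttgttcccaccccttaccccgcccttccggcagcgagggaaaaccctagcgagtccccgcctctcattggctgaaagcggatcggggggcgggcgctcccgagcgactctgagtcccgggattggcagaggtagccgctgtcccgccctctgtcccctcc
Those letters stood in 1 of the 14 cholesterol gene promoters available, in 46 of 980 of genes called higher (4.69%, exact 95% interval 3.46% to 6.21%), in 21 of 561 of genes called lower (3.74%, 2.33% to 5.67%) and in 3.3% of all promoters. Among tested genes with a promoter the share was 3.43%.

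Of 14 fatty acid synthesis genes 10 fell and 0 rose (list median −1.99). Acaca, which commits acetyl-CoA to fatty acids, measured 7.53, 10.02 and 12.75 against 12.17, 13.20 and 13.80 (difference −3.09, SE 0.44, adjusted p = 0.0058). The desaturase gene Fads2 differed by −3.16 (adjusted p = 0.00666) and the citrate lyase gene Acly by −2.05 (adjusted p = 0.00429). Acoxl, an acyl-CoA oxidase relative and not a known synthesis enzyme, is counted in the list and differed by −4.58 (adjusted p = 0.0238). Fasn, fatty acid synthase, measured 12.93, 14.98 and 17.08 against 17.18, 17.71 and 18.11, with no overlap (difference −2.60, adjusted p = 0.0207). Acoxl and Fasn lost their calls without experiment 3, 5, 8 or 9, with adjusted p of up to 0.0768 and 0.0688. Of 17 genes of phosphatidylcholine and triglyceride synthesis 6 fell, among them Lpin2 (−1.77, adjusted p = 0.00361) and the lipid droplet coat gene Plin2 (−1.41, adjusted p = 0.00685), and 2 rose, Pcyt1b (at least 1.84) and Pemt (1.46). Without the block 1 of the 6 and 0 of the 2 were called, and 8 of the 10 fatty acid genes. The fatty acid count was 6 without experiment 3 or 5 and 5 without 8 or 9.

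Alveolar type I markers were mixed, with 5 of 18 lower and 2 higher. Ager, the receptor abundant on type I cells, measured 11.57, 13.65 and 15.81 against 15.50, 15.91 and 16.24. The array of experiment 4 alone reached into the Wnt-negative range (difference −2.17, SE 0.45, adjusted p = 0.0175), and Ager lost its call without experiment 3, 8 or 9 (adjusted p up to 0.0606). The anchoring protein gene Akap5 (−2.23, adjusted p = 0.0055) and the basement membrane collagen gene Col4a3 (−1.29, adjusted p = 0.00947; 0.62 without the block) fell. Rtkn2 (−1.90) and Emp2 (−1.40) fell in the full fit and lost their calls without experiment 3, 5, 8 or 9, with adjusted p of up to 0.07 and 0.105, and Rtkn2 also without 7. The type I count of 5 was 2 without experiment 3, 8 or 9, 3 without 5, and 2 without the block. The genes that rose were Scnn1g and Sema3e (2.63, adjusted p = 0.00293). Cav1 (−1.21, adjusted p = 0.0617), Aqp5 (−0.40), Hopx (0.22) and Pdpn (1.24, adjusted p = 0.0617) were not called. Of 13 genes of the transitional alveolar state, the keratin genes Krt19 (3.99), Krt8 (1.12) and Krt18 (1.11) and Cldn4 rose, and Hbegf, an EGF receptor ligand, fell (−1.61, adjusted p = 0.00863; 0.975 without the block). Krt18 lost its call without experiment 7 or 8. The other members, among them Sfn and Cdkn1a, were not called. Without the block 3 of the 4 were called higher.

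**Figure D3:**
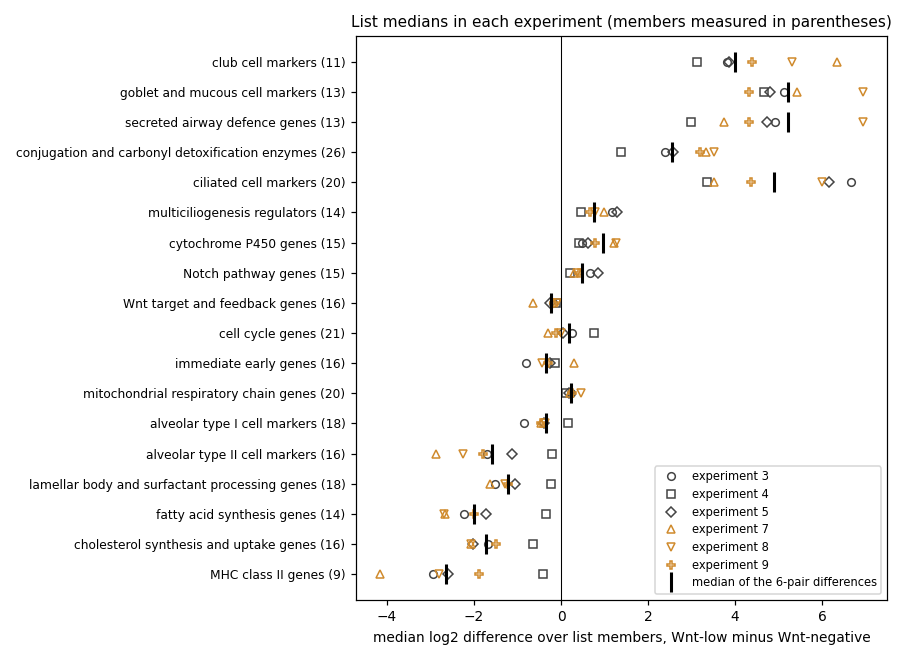
Median log2 difference over the members of 18 gene lists in each of the 6 experiments (symbols) and for the mean differences (bar). Club, goblet, defence, detoxification and ciliated lists lie right of 0 in all 6 experiments, type II, lamellar body, fatty acid, cholesterol and MHC class II lists lie left of 0 in all 6, and experiment 4 lies nearest to 0 in each of those 5.

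Most genes of antigen presentation through MHC class II fell. Of 9 measured MHC class II genes 7 fell and 0 rose (list median −2.64, from −4.16 to −0.41 over experiments). H2-Ab1, a chain of the class II molecule, measured 6.86, 9.73 and 13.89 in the Wnt-low and 11.80, 13.78 and 14.79 in the Wnt-negative arrays. The groups overlapped through the Wnt-low arrays of experiments 4 and 5 (difference −3.50, SE 0.71, adjusted p = 0.0161). Ciita, the master regulator of these genes, fell too (−1.43, SE 0.20, adjusted p = 0.00553; 0.211 without the block), as did the peptide loading genes H2-DMb1 (−3.41, adjusted p = 0.0162) and H2-DMb2 (−2.75, adjusted p = 0.0135). H2-Ab1 and H2-DMb1 lost their calls without experiment 3 or 8, with adjusted p of up to 0.0563 and 0.0561. Without the block 3 of the 7 were called, and without experiment 3 or 8, 4. Of 10 class I and antigen processing genes 0 were called (list median −0.13).

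Interferon-stimulated genes went up in part, with 5 of 15 higher and 0 lower (list median 0.49). Without experiment 4, 1 of the 15 was lower. Usp18, a brake on interferon signalling, measured 7.41, 9.45 and 12.50 against 4.15, 5.20 and 6.63 (difference 4.37, SE 0.56, adjusted p = 0.00442). Ifitm3, which restricts virus entry, rose by 4.13 (adjusted p = 0.00146) and Oas1a, a sensor of double-stranded RNA, by 2.13 (adjusted p = 0.00453). Ifit1 and Ifit2 rose by at least 1.07 and 1.29, and Isg15 (0.21) and Irf7 (0.49) were not called. Without the block 4 of the 5 were called. Of 21 chemokine and cytokine genes, Cxcl17, Ccl20 (2.18, adjusted p = 0.0429) and Cx3cl1 (1.40, adjusted p = 0.00448) rose and Il33, Csf2, a growth factor for alveolar macrophages (−2.81, adjusted p = 0.00631), and Cxcl16 (−1.68, adjusted p = 0.00735) fell. Ccl20 lost its call without experiment 3, 4, 5, 7 or 9, with an adjusted p of up to 0.0942, and without the block Cx3cl1 (0.0559) and Cxcl16 (0.0582) were not called. Of 18 complement and acute phase genes 7 rose, led by Cp and the complement gene Cfb (5.19, adjusted p = 0.00409), and 3 fell, Itih4, Cd59a (−1.86) and Lcn2. Orm1, among those that rose (3.39, adjusted p = 0.0308), lost its call without experiment 3, 4, 5, 8 or 9 (adjusted p up to 0.0948). Of 18 protease inhibitor genes, Wfdc1 (1.60), Serpinb1a (at least 1.35) and Serpinf1 (1.01) rose and Itih4, Spink5 (−2.11) and Serpinb6b (−1.50) fell. Serpinf1 lost its call without experiment 5, 8 or 9, and Spink5 without any experiment except 4 (adjusted p up to 0.0752). Without experiment 3, 5 or 9 the counts of 3 lower complement and protease inhibitor genes were 1 each, the latter also without 8. Without the block each was 1 too.

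Of 24 lung epithelial transcription factor genes 1 rose and 3 fell, where 4.26% and 3.23% of all genes did. The gene that rose was Sox2, a factor of the conducting airway. Sox2 measured 8.27, 8.89 and 11.08 in the Wnt-low and 3.75, 4.40 and 5.05 in the Wnt-negative arrays, where it was at background (at least 4.86, adjusted p = 0.00131). The groups did not overlap. Etv5, Id2 (−1.47, adjusted p = 0.0172) and Foxp1 (−1.35, adjusted p = 0.00265; 0.242 without the block) fell. Id2 lost its call without experiment 8 or 9 (adjusted p up to 0.0595) and without the block (0.193). Without experiment 4 the list had 2 genes higher and 5 lower, and without 8 or 9, 1 lower. Nkx2-1 (−0.49), which specifies lung epithelium, and Gata6 (−0.92) had differences under 1, and Foxa2 (0.05) did not pass the test.

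Of 15 Notch pathway genes 3 rose and 0 fell. Hey1, a transcriptional target of Notch, measured 8.52, 9.34 and 12.20 against 4.40, 4.75 and 5.53 (difference 4.78, SE 0.43, adjusted p = 0.00224). Notch3 (1.74, adjusted p = 0.00444) and Hes1 (1.03, adjusted p = 0.0022) were the others. Hes1 was just past a difference of 1 and under it without experiment 3, and without the block its adjusted p was 0.595. The ligand gene Jag1 had a difference of 0.77 and was not called.

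Of 25 BMP and TGF-beta genes 3 rose and 5 fell. The receptor gene Bmpr1b rose by 4.30 (adjusted p = 0.00181), and the ligand genes split. Tgfb2 rose by at least 1.94 (adjusted p = 0.00107), whereas Tgfb1 (−1.72, adjusted p = 0.0106; 0.248 without the block) and Tgfb3 (−3.18, adjusted p = 0.0113) fell. Bmp1, a protease that processes collagen, fell (−3.43, adjusted p = 0.00426), and Id1, a BMP target, rose (1.40, adjusted p = 0.0146; 0.572 without the block) while its relative Id2 fell. Of 20 FGF and EGF genes 5 rose and 4 fell. Fgfr2, the receptor for FGF7 and FGF10 in epithelium, measured 10.77, 11.58 and 13.56 against 13.26, 13.75 and 14.07 (difference −1.87, SE 0.30, adjusted p = 0.00737), and its feedback inhibitor gene Spry2 fell (−1.58, adjusted p = 0.00609; 0.346 without the block). Fgfr1 (2.21, adjusted p = 0.00293), Fgfr3 (2.45, adjusted p = 0.00412), Erbb2 (1.32), Nrg1 (1.73) and Btc (1.24) rose. Without the block 3 of the 5 and 2 of the 4 were called, and 2 of the 3 and 2 of the 5 BMP and TGF-beta genes.

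Of each list of rare epithelial markers, 1 or 2 members were called. Over all genes 4.26% were called higher and 3.23% lower, and among genes above background 7.28% and 5.51%. In lists this short 1 called gene already exceeds these shares. Of 12 airway basal cell markers Krt15 rose (1.46, adjusted p = 0.0109; 0.0992 without the block), while Krt5, their defining keratin, had 4.16, 5.33 and 5.45 against 3.72, 4.43 and 5.05 (0.52, adjusted p = 0.166) and Trp63 was at background. Of 10 neuroendocrine markers Uchl1 (1.66, adjusted p = 0.00688) and Resp18 (2.38, adjusted p = 0.0488) rose, and the granule protein genes Chga and Chgb were at background. Resp18 lost its call without experiment 4, 5, 7, 8 or 9 (adjusted p up to 0.115). Of 11 tuft cell markers Alox5ap rose (at least 0.61, fitted 1.10, adjusted p = 0.00235; 0.267 without the block), and the defining Pou2f3 and Trpm5 were at background. Of 7 ionocyte markers 2 fell, Cftr and Atp6v1c2 (−1.01, adjusted p = 0.0131), and Foxi1 was not called (−0.44). Atp6v1c2 lost its call without experiment 3, 5 or 8, and without the block 0 of the 2 were called.

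Markers of cells that the sort should remove were at background in part. The counts of called markers stand beside 4.26% of all genes called higher and 3.23% lower. Of 10 endothelial markers 7 were at background in both groups and both runs, Pecam1, Cdh5 and Tie1 among them. Kdr, a receptor for VEGF that is best known from endothelium, measured 9.56, 10.66 and 11.99 in the Wnt-low and 3.78, 4.62 and 5.16 in the Wnt-negative arrays (difference 6.01, SE 0.32, adjusted p = 0.00107). All Wnt-low values lay above all Wnt-negative ones. Esam, an adhesion molecule of tight junctions, fell (−2.92, adjusted p = 0.0135). Of 11 fibroblast and smooth muscle markers and 11 lymphoid markers 0 were called, with Acta2 and Cd3e at background and 3 and 4 members above it. Among 13 myeloid markers Cd14 rose (1.69, adjusted p = 0.00407), with Tyrobp and Itgam at background and 6 members above it, and the 1 measured erythroid marker was not called. The mean level over the myeloid list was 4.55 to 5.74 in the Wnt-low and 4.64 to 5.76 in the Wnt-negative arrays. Of 8 mesothelial markers 3 rose and 0 fell, a larger share of higher genes than the 4.26% of all genes. They were Upk1b (3.71, adjusted p = 0.0033), Msln (at least 2.36, adjusted p = 0.0203) and Rspo1 (1.22, adjusted p = 0.00429, or 0.213 without the block). Msln lost its call without experiment 7 (0.0548). Wt1 was at background while 7 of the 8 were above it. In experiment 4 alone Upk3b (2.18), Lrrn4 (2.10) and Gpm6a (1.97) were also higher in Wnt-low. The mean level over the mesothelial list was 4.63 to 7.00 in the Wnt-low and 3.88 to 5.46 in the Wnt-negative arrays, and its part in the other results was not tested.

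Calls among growth and stress genes were near the shares over all genes, 4.26% higher and 3.23% lower. Of 21 cell cycle genes 1 was called, Bub1 (−1.34, adjusted p = 0.00687; 0.713 without the block), and Mki67, the common proliferation marker, measured 6.43, 8.05 and 10.95 against 6.99, 7.86 and 10.74 (0.20, adjusted p = 0.7113). Of 16 immediate early genes, which respond to cell dissociation, Nr4a1 fell (−1.37, adjusted p = 0.0135; 1 without the block), and the list median was −0.34, with 2 genes lower without experiment 7. Of 20 mitochondrial respiratory chain genes 0 were called (list median 0.22).

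The 15 named genes that fell most were largely outside the lists. Itih4, a protease inhibitor chain, came first (−4.60, adjusted p = 0.0286), followed by Acoxl, the secreted Egfl6 (−4.53), the metalloprotease gene Adam19 (−4.34), Rbpjl (−4.33), Tinag (−4.21), the sphingosine phosphatase gene Sgpp2 (−4.12) and Il33. Adam19 measured 4.96, 8.26 and 12.01 against 12.00, 12.61 and 13.26, so the groups touched only at the Wnt-low array of experiment 4 (SE 0.74, adjusted p = 0.00914). The others were the endocytic receptor gene Lrp2 (−4.06), the sodium and calcium exchanger gene Slc24a4 (−4.01), Entpd1, which degrades extracellular ATP (−4.00), Olfr171 (−3.98), Snx22 (−3.85), Nkd1 and Mfsd2a, a carrier of lysophospholipids (−3.80). Itih4, Egfl6 and Sgpp2 lost their calls without experiment 3, 5, 8 or 9 (adjusted p up to 0.0838, 0.0854 and 0.0982), Sgpp2 also without the block (0.0655), Tinag without 5 or 8 (0.0565) and Entpd1 without 8 (0.0519). Adam19, Rbpjl, Lrp2, Slc24a4, Olfr171, Snx22 and Mfsd2a were called whichever experiment was left out.

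Over all lists together, 136 of 676 measured genes were called higher and 86 lower, where 4.26% and 3.23% of all genes were. The lists were chosen with earlier results of these data known, so their larger share is not a separate result. Of the 47 lists, 42 held at least 1 called gene. Those without any were the fibroblast, lymphoid, erythroid, MHC class I and mitochondrial lists. The difference between the runs was itself tested, as an interaction of group and run, and no gene passed (0 at an adjusted p under 0.05, 1909 at an unadjusted p under 0.05, limma). That test set 3 pairs against 3, so it could miss differences between the runs. No called gene had opposite signs in the runs. The genes were called from these same pairs, so that agreement is largely set by the call rule.

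**Figure D4:**
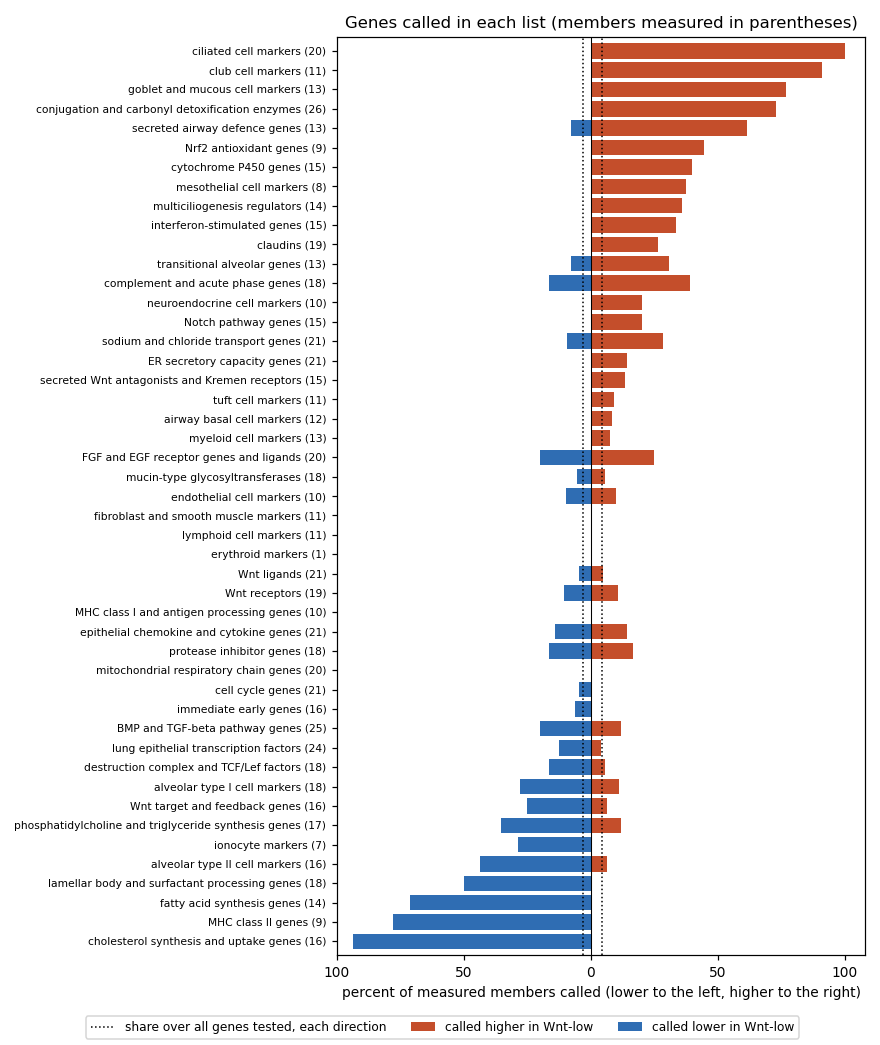
Percent of the measured members of each of the 47 gene lists that were called higher (right) or lower (left) in Wnt-low, with dotted lines at the shares over all genes, 4.26% and 3.23%. Ciliated, club, goblet and detoxification lists reach furthest to the right, and cholesterol, MHC class II and fatty acid lists furthest to the left.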

How the data were processed

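The deposited table held log2 values of 72688 probe sets made by the authors with RMA, per the submitters' processing notes. Software, chip library and build were not given in the sources used here, nor how values came to exceed the range of a 16-bit scanner, so differences are on the deposited scale and are not ratios of RNA amounts. Array medians differ between the runs, and each experiment lies within a run.

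Of 65770 probe sets that were not controls, 30604 had 1 gene symbol in the platform annotation, and 827 symbols were updated through RefSeq. Wnt-low and Wnt-negative arrays were compared with limma 3.58.1 in R 4.3.3, with group and experiment as terms, eBayes, two-sided tests and Benjamini-Hochberg adjustment over 30142 genes. The experiment number in the titles marks fractions sorted in the same experiment. Deviations of the paired arrays from their group means correlated at 0.486 to 0.753, and from the means of group and run at 0.003 to 0.279. The p-values rest on 6 pools per group. The number of arrays limits the precision.

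For a gene whose lower group was at background in a run, the difference is given as at least the distance to the background level. A gene near the top was within 1 log2 unit of the array's highest value. On simulated data with the real genes, 48 of 50 differences of 2 and 45 of 50 of −2 were recovered, all 50 of each at 4 and −4, and 1 of 29942 unchanged genes was called. The simulated noise was independent between genes, and far fewer genes were changed than were called in the real data. The simulation therefore checks the fit and does not estimate the false calls among the real genes.

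The members and the gene lists were chosen with earlier results of these data known. Named genes were a set of anchors, the 15 highest and 15 lowest called genes with a mean above the median of all genes (unnamed loci left out), and up to 4 called members per list and direction. Other names were chosen after their values were seen, as were the sterol element and X-box motifs. Alternatives covered the block, the samples, the scaling, the filter, the probe set per gene, the variance model and the call rule.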

Additional observations from a re-analysis of the deposited data

Results flagged for a closer look

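Of 169 named genes and 46 list medians, 15 genes and 8 lists had 1 experiment whose Wnt-low minus Wnt-negative difference stood apart from the other 5 (past Dixon's 95% critical value for 6 values). Chance marks about 1 in 20. No explanation was tested for any of them.

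Experiment 4 stood apart in 10 genes. Its difference was −0.17 for Axin2 (−1.84 to −1.28 in the others), −0.39 for Lrp5 (−2.47 to −1.86) and 2.45 for Porcn (4.04 to 4.93). It was −0.68 for Snx22 (−5.02 to −4.08), −0.56 for Akap5 (−3.07 to −2.20) and −0.10 for Tgfb1 (−2.51 to −1.62). Rtkn2 changed sign there, at 0.31 (−3.00 to −1.84). Among genes that rose, Ifitm3 was at 2.66 (4.10 to 4.84), Cldn8 at 0.98 (2.67 to 3.56) and Clic6 at 2.51 (4.63 to 5.47). In the same experiment the median of the mesothelial markers was 1.99 (0.01 to 0.21).

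Experiment 8 was high for the secreted or surface products Ccl20, at 5.43 (0.77 to 1.82), Cfb, at 8.51 (3.67 to 5.32), Msln, at 6.14 (1.69 to 2.91), and the keratin gene Krt15, at 2.88 (0.83 to 1.45). Its neuroendocrine median was 0.25 (0 to 0.06), and the difference of Lgr5, a gene at background, was −0.08 (−0.03 to 0).

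Experiment 7 was lowest in the median of the Wnt target and feedback genes, at −0.65 (−0.26 to −0.10), of the Wnt receptors, at −0.31 (−0.05 to 0.09), and of the Wnt ligands, at −0.06 (−0.01 to 0), and highest in that of the sodium and chloride transport genes, at 0.10 (0 to 0.02). The tuft cell median was −0.04 in experiment 5 (−0.01 to 0), and the FGF and EGF median was −0.23 in experiment 3 (−0.04 to 0.02).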

How the results depend on the processing

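The main comparison called 2259 genes, 1285 higher and 974 lower, with 136 listed genes higher and 86 lower. Without the replicate block it called 973 (748 higher, 225 lower, 37 listed genes lower), of which 972 were called with it. All 18 arrays with no replicate block gave 1035 (818 and 217, with 28 listed genes lower). Experiments 3 to 5 alone gave 0 calls in every count (0 higher, 0 lower, 0 listed genes either way, limma), with 6829 genes at an unadjusted p under 0.05. Experiments 7 to 9 alone gave 1269 (751 and 518, with 55 listed genes lower). The adjusted p alone gave 6531 (3326 and 3205, with 137 listed genes lower), and limma's treat against a difference of 1 gave 354 (344 and 10, with 73 listed genes higher and 2 lower).

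Leaving out each experiment in turn gave 1910 to 2500 genes, 1104 to 1395 higher and 782 to 1105 lower, with 129 to 141 listed genes higher and 65 to 101 lower. The lowest total was without experiment 8 and the highest without experiment 4. The counts stayed within 1.5 times with the run as block (2293), the experiment as a random block (2327), all 18 arrays with the block (2305), a filter on dim genes (2305), the mean of probe sets (2246), trend and robust eBayes (2262) and array weights (2413). Median centring gave 2295, with 62.1% higher against 56.9% in the main comparison, and quantile normalization 2305, with 51.8% higher. After the data were seen, protein-coding genes alone were tried (1876 calls, 63.3% higher), and genes of identical values counted once (2198). The interaction of group and run had 0 genes at an adjusted p under 0.05 in each alternative where it was fitted. No named gene reversed its direction. Of the 161 called named genes, 161 lost their call with experiments 3 to 5 alone, 105 under treat, 65 with experiments 7 to 9 alone, 49 without the block and 50 with all 18 arrays and no block. With the run as block, or the experiment as a random block, 0 lost their call. Leaving out experiment 3, 5, 8 or 9 ended 19 to 26 calls, experiment 7 ended 9 and experiment 4 ended 3. Quantile normalization ended 5, and centring and the mean of probe sets 1 each.

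The precision is limited by 6 pairs, by 12479 genes at background and by the top of the scale, near which several surfactant and secretory genes lie.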

Other observations

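Small nuclear RNA genes, the RNA parts of the spliceosome, made up a large share of the genes called lower. Of 914 such genes 216 were lower in Wnt-low (23.6%, against 3.23% of all genes) and 0 were higher, leaving 758 other genes among the 974 called lower. Many are near-identical copies, and the 216 held 155 distinct sets of values. The median over all 914 was between −0.585 and −0.188 in the 6 experiments. These genes were looked at after their values were seen.

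Beside Lamp3, a run of odorant receptor genes was called lower together with it. In order towards Lamp3, Olfr169 differed by −2.99, Olfr170 by −2.63 and Olfr171 by −3.98 (adjusted p = 0.00278, 0.00486 and 0.004, limma), while Olfr164 to Olfr168 were at background and not called. Each of the 3 was lower in 6 of 6 experiments. B3gnt5, a glycosyltransferase gene 2 places beyond Lamp3, differed by −1.01 (adjusted p = 0.0128) and was under a difference of 1 without experiment 3, 5 or 7. The genes on either side of B3gnt5 went the other way and were not called. Gm17799, next to Lamp3, differed by 0.27 and A930003A15Rik by 0.79 (adjusted p = 0.0448 and 0.00913, limma).

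The difference is a lower bound for 195 genes called higher, whose Wnt-negative level was at background, and for 21 called lower, whose Wnt-low level was. Among called genes 34 had several probe sets, and in 29 of them every other probe set had the same sign. In the rest, no probe set of opposite sign reached an unadjusted p under 0.05 (limma).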
